A study of Mus musculus with 8 samples.

Results

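Orosomucoids (also called alpha-1-acid glycoproteins) and other acute phase proteins were followed in brown adipose tissue of mice with a knockout of the glucocorticoid receptor there. The set held 10 genes, Orm1, Orm2, Orm3, Lcn2, Hp, Serpina3n, Saa1, Saa2, Saa3 and Cp, and each had 1 probe set among the 21115 on the array. The genes were selected on their names and on earlier results of these same arrays, chiefly the low intensities of the Orm genes in the knockout. Their genotype differences are therefore given as a description, with no test.

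The study profiled brown fat of 4 GRBATKO and 4 control mice on Affymetrix Mouse Gene 1.1 ST arrays, 1 array per mouse. GRBATKO mice are given as knockouts of the receptor in brown adipose tissue. The sources used here give neither the Cre driver nor the sex of the mice. The control mice are called wild type in the sample labels and Flox, that is, carrying the receptor gene flanked by recombination sites, in the design text. All 8 mice, of both groups, were kept at 5 °C for 1 week from an age of 16 to 20 weeks, and no mice kept warm were analysed here.

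Acute phase proteins are secreted mainly by the liver when tissue is injured or infected. Interleukin-6, acting through STAT3, and interleukin-1, acting through NF-kB and C/EBP factors, switch on their genes, and glucocorticoids amplify many of these responses. Fat is a second source: orosomucoid, haptoglobin, lipocalin 2 and serum amyloid A3 are all made by adipocytes or by cells around them. The orosomucoid promoter is a textbook example of joint control, since C/EBPβ was isolated as a factor that binds it and the glucocorticoid receptor acts at a neighbouring element in the rat gene.

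The RefSeq promoter windows of the orosomucoids are shown first, because the 3 genes are near-copies of each other and because both factors are known to act on the promoter of their rat counterpart. The tables used here held windows for 8 of the 10 genes (9 windows, 2 of them for Cp), each running from 250 bases before to 50 bases after a start site in build GRCm38.p6; Orm1 and Hp had none. The Orm2 window lies at chr4:63362199-63362498 and the Orm3 window at chr4:63355908-63356207, both on the plus strand. Capitals mark the C/EBP motif TTNNGNAA and the hexamer TGTTCT, which is 1 arm of the glucocorticoid response element, each on either strand.
Orm2 promoter: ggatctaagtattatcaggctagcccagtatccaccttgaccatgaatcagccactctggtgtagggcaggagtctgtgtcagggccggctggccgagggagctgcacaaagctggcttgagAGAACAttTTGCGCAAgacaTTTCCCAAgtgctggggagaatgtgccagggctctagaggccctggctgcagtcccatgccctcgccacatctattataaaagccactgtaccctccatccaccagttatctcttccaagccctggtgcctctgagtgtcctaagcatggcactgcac
Orm3 promoter: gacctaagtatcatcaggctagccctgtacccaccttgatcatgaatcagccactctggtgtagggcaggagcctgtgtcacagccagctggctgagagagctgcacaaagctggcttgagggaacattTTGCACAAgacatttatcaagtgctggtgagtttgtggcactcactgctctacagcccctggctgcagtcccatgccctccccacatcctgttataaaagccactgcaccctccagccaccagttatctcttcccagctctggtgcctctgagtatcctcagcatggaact

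In a global alignment 263 bases of these windows were identical (86.2% of aligned columns). Both carry a C/EBP match, starting at position -120 from the start site in Orm2 and at -121 in Orm3. Orm2 holds a further C/EBP match at -108 and the TGTTCT hexamer (read as AGAACA on the plus strand) at -128, and neither was found in the Orm3 window. The stretches below show the 15 bases on either side of the shared C/EBP match, in capitals, at chr4:63362314-63362351 and chr4:63356022-63356059.
Orm2 stretch: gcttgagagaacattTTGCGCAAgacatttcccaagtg
Orm3 stretch: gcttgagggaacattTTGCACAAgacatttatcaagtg

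Of the 38 bases, 34 were identical, and going from Orm2 to Orm3 the substitutions were A8G, G20A, C31A and C32T, counted from 1 at the 5′ end of the stretch. A8G lies in the hexamer, G20A within the shared C/EBP match, and C31A and C32T within the second C/EBP match of Orm2. The C/EBP motif is common: 40.7% of 32851 windows of the same length in the table held it, and so did all 8 genes of the set that had a window. TGTTCT was found in 19% of all windows and, within the set, in Orm2, Serpina3n and 1 of the Cp windows. A loose form of the whole glucocorticoid response element, the arms GNACA and TGTNC parted by any 3 bases, was found in 0.475% of all windows and within the set only in Serpina3n. The STAT motif TTCNNNGAA (8.3% of all windows) was in no window of the set. The NF-kB motif GGGNNNTCC (17.8%) was in Lcn2 alone and its longer form, GGG and TTTCC parted by any 2 bases (1.63%), in Serpina3n alone. These matches are of letters only, and no binding was measured in this series.

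The array values checked against the labels as follows. Ucp1, the uncoupling protein that defines brown fat, lay between 12.97 and 13.07 (log2 intensity) and ranked 1 or 2 on all 8 arrays, although the extraction protocol in the labels names macrophages. Nr3c1, the targeted receptor gene, averaged 8.61 ± 0.08 in the controls and 7.74 ± 0.10 in the knockout (SD, n = 4 each), and no mice overlapped. It fell by 0.86 on the log2 scale (SE 0.08, limma adjusted p = 0.00697) to 0.549 of the control intensity. Much of its signal thus remained in this whole-tissue RNA. All control arrays stood in rows A and B of the array plate and all GRBATKO arrays in rows C and D, so genotype and array row cannot be told apart, whereas both groups had 2 arrays in column 5 and 2 in column 7. Skeletal muscle markers (14 measured) had a mean log2 deviation of 2.71 in control 3, of 1.26 in GRBATKO 4 and of -0.92 to -0.02 in the remaining mice. The 25th percentile of the log2 intensities was 3.03 and 3.05 in control 1 and control 4 against 2.84 to 2.90 in the rest. Control 4 also stood out in Alb, the liver's albumin gene, at 4.98 against 3.02 to 3.84 in the other 7 mice.

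Orm3 carried the largest genotype difference of the set. Its log2 intensity was 6.92, 7.74, 7.24 and 7.25 in control mice 1 to 4 and 6.11, 6.27, 6.11 and 6.49 in GRBATKO mice 1 to 4. Every GRBATKO mouse lay below every control mouse, with control 2 well above the other controls and GRBATKO 4 nearest to them. The means were 7.29 ± 0.34 (SD, n = 4) and 6.25 ± 0.18 (SD, n = 4), a log2 difference of -1.04 (SE 0.16), that is, 0.486 of the control intensity. Without control 2 the difference was -0.89, and without control 1 it was -1.16. In this whole-tissue RNA, fewer cells of a type and less RNA per cell cannot be told apart.

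Orm1, the first gene of the cluster, was lower by a smaller step with a narrow spread. Control mice 1 to 4 had 10.03, 10.07, 10.12 and 9.92, and GRBATKO mice 1 to 4 had 9.55, 9.63, 9.62 and 9.67 (log2 intensity). The groups did not overlap, and all 4 GRBATKO mice lay within 0.12 of each other. The means of 10.03 ± 0.08 (SD, n = 4) and 9.62 ± 0.05 (SD, n = 4) gave a difference of -0.42 (SE 0.07), or 0.748 of control.

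Orm2 showed nearly the same step as Orm1. Its log2 intensity was 5.56, 5.42, 5.30 and 5.44 in control mice 1 to 4 and 4.97, 5.08, 4.93 and 4.93 in GRBATKO mice 1 to 4, again without overlap. The means of 5.43 ± 0.11 (SD, n = 4) and 4.98 ± 0.07 (SD, n = 4) differed by -0.45 (SE 0.08), or 0.730 of control. With 16 added to each linear intensity before the log, the Orm2 difference was -0.32, since that addition weighs most on values as low as these.

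The order of the mice differed between the copies. Control 1 was the highest control in Orm2 and the lowest in Orm3, and control 2 was by far the highest in Orm3 but second of the controls in Orm1. Taken within each mouse and centred over all 8, Orm2 minus Orm1 ran from -0.20 to 0.15 in control and from -0.12 to 0.07 in GRBATKO tissue, so those copies kept their relation in both groups. Orm3 minus Orm1 ran from -0.05 to 0.74 in control and from -0.45 to -0.12 in GRBATKO mice, without overlap. Orm3 minus Orm2 ran from -0.20 to 0.76 and from -0.42 to 0.00, where control 1 fell inside the GRBATKO range. The sources used here do not say how probes that match several copies were assigned, so signal from 1 copy may be counted in another.

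**Figure D1:**
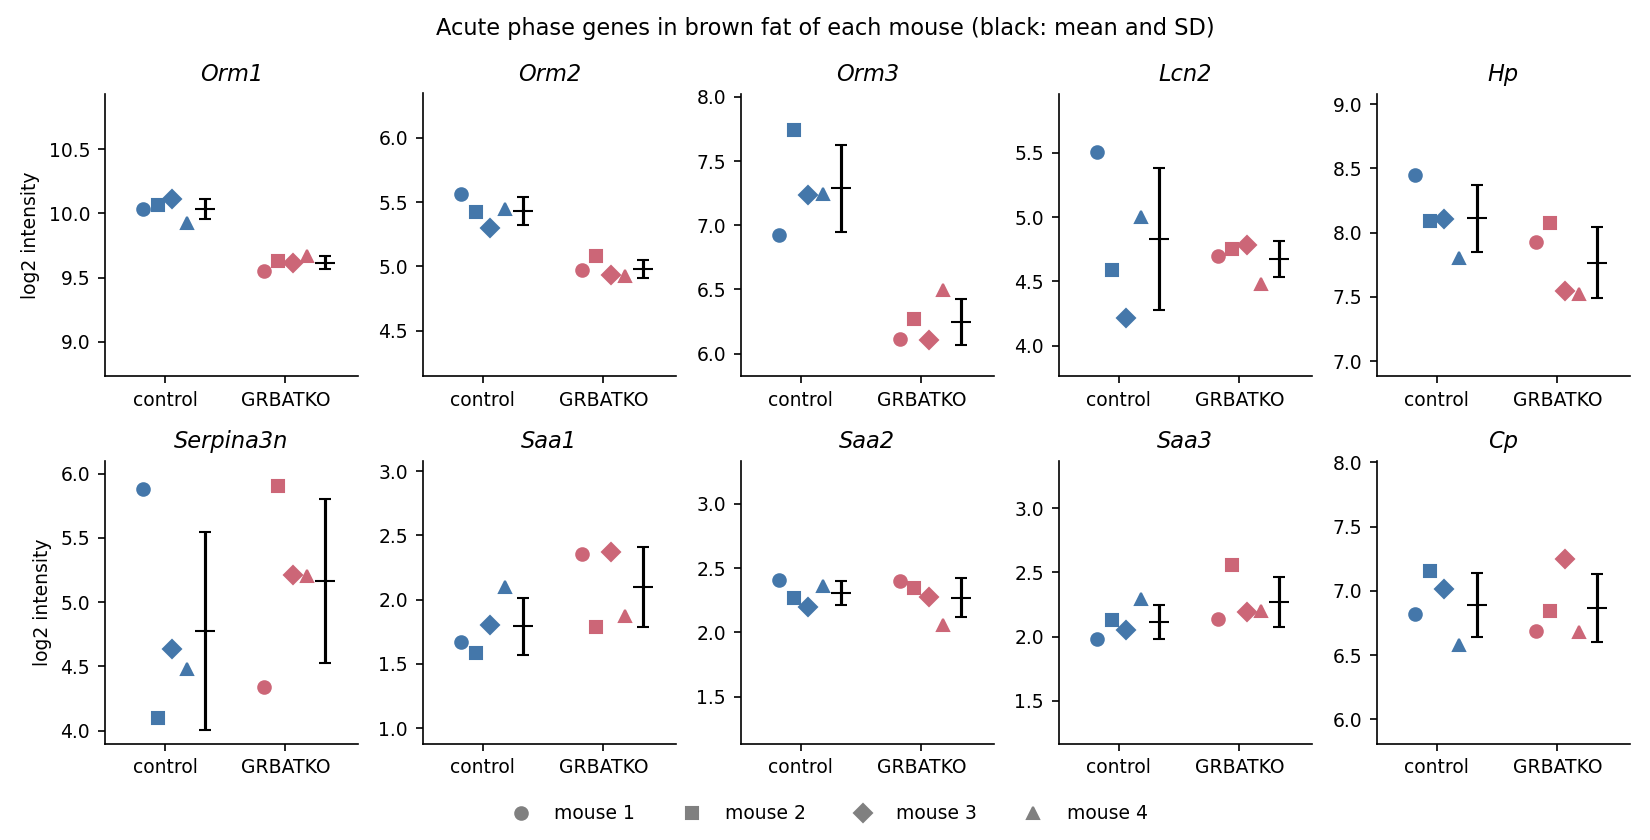
Log2 intensity (y axis) of the 10 acute phase genes in each control (blue) and GRBATKO (red) mouse; marker shapes give the mouse number within its group, which does not pair mice, and black bars give mean and SD (n = 4). Each panel spans the same log2 range around its own centre; Orm1, Orm2 and Orm3 show separate groups and the other 7 genes overlap.

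A probe set was called dim where its mean log2 intensity did not exceed 3.30, the 95th percentile of 1289 probe sets for olfactory and vomeronasal receptors, genes that fat has no known use for. This is a description and not a detection call; 34.2% of all probe sets were dim. Of the 10 acute phase genes 7 were not dim and 3 were, all of them serum amyloid A genes.

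Hp encodes haptoglobin, the plasma protein that captures free haemoglobin and is also secreted by fat cells. Its log2 intensity was 8.44, 8.09, 8.10 and 7.80 in control mice 1 to 4 and 7.92, 8.07, 7.54 and 7.52 in GRBATKO mice 1 to 4. GRBATKO 3 and GRBATKO 4 lay below all controls, while GRBATKO 1 and GRBATKO 2 lay within the control range. The means of 8.11 ± 0.26 (SD, n = 4) and 7.76 ± 0.28 (SD, n = 4) differed by -0.35 (SE 0.16). The difference was -0.54 among the arrays of column 5 and -0.15 among those of column 7 (2 against 2 mice in each), and it was -0.235 without control 1.

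Lcn2 encodes lipocalin 2, which binds bacterial siderophores and so withholds iron, and which adipocytes, macrophages and neutrophils release. Control mice 1 to 4 had log2 intensities of 5.51, 4.59, 4.22 and 5.00, and GRBATKO mice 1 to 4 had 4.69, 4.75, 4.78 and 4.48. All GRBATKO values fell inside the control range, which was wide (SD 0.55 against 0.14, n = 4 each). The means of 4.83 and 4.68 differed by -0.16 (SE 0.24), and this sign rested on control 1, without which the difference was 0.07. Without both control 1 and control 4 it was 0.27. Neutrophil markers (13 measured, 9 dim, S100a8 at most 3.21) had mean deviations of 0.05, 0.01, -0.09 and 0.03 in control mice 1 to 4. That was the same order as Lcn2 over a narrower range. In GRBATKO mice the deviations ran from -0.02 to 0.01 in the reverse order of Lcn2, with GRBATKO 3 lowest in the markers and highest in Lcn2. The part of neutrophil markers in the Lcn2 values was not tested.

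Saa1, Saa2 and Saa3 encode apolipoproteins of the inflammatory response, the first pair made chiefly by liver and Saa3 chiefly outside it. Saa1 ran from 1.59 to 2.10 in control and from 1.79 to 2.37 in GRBATKO mice, with a difference of 0.30 (SE 0.16), Saa2 from 2.19 to 2.41 and from 2.06 to 2.40, with -0.04 (SE 0.09), and Saa3 from 1.98 to 2.29 and from 2.13 to 2.55, with 0.16 (SE 0.11), all on the log2 scale. The groups overlapped in each of them, and at these intensities the distance from background is unknown. The Saa1 difference was 0.625 among the arrays of column 5 and -0.015 among those of column 7. The Saa1 and Saa2 promoter windows were identical at 287 aligned bases (95.3%), and their probe sets may likewise share signal.

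Serpina3n encodes a secreted inhibitor of serine proteases such as granzyme B and is related to human alpha-1-antichymotrypsin. Its window, at chr12:104406458-104406757 on the plus strand, is shown because it alone of the set held the long glucocorticoid motif; capitals mark the C/EBP motif, the TGTTCT hexamer (as AGAACA) and the long motif, which starts at position -78.
Serpina3n promoter: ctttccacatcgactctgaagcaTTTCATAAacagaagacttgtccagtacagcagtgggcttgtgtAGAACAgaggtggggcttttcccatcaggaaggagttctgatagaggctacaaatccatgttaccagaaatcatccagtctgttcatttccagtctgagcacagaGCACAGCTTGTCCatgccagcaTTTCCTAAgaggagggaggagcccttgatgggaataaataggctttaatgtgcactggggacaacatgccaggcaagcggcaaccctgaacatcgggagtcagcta

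Control mice 1 to 4 had Serpina3n log2 intensities of 5.88, 4.10, 4.63 and 4.48, and GRBATKO mice 1 to 4 had 4.34, 5.90, 5.21 and 5.20. Control 1 and GRBATKO 2 stood well above the rest, control 2 was lowest, and the groups overlapped almost throughout. The means of 4.77 ± 0.77 (SD, n = 4) and 5.17 ± 0.64 (SD, n = 4) differed by 0.39 (SE 0.40). Among the arrays of column 5 the difference was -0.48 and among those of column 7 it was 1.26. Without control 1 it was 0.76 and without GRBATKO 2 it was 0.15. White adipocyte markers (8 measured, none dim) were also highest in GRBATKO 2, at a mean deviation of 0.32, and in control 1, at 0.16, against -0.23 to 0.08 in the other 6 mice. The markers did not move together in these mice. Lep was 6.22 in GRBATKO 2 but 4.35 in control 1, whereas Retn was 9.71 and 9.38. Lymphocyte markers stood at 1.05 in GRBATKO 2 against -0.23 to 0.08 elsewhere. The part of both marker lists in the Serpina3n values was not tested.

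Cp encodes ceruloplasmin, the copper-carrying ferroxidase of plasma. Control mice 1 to 4 had log2 intensities of 6.82, 7.15, 7.01 and 6.58, and GRBATKO mice 1 to 4 had 6.69, 6.84, 7.25 and 6.68. The ranges lay over each other and the means differed by -0.03 (SE 0.16). GRBATKO 3, the highest mouse in Cp, was also the highest in macrophage markers, with a mean deviation of 0.36 (13 measured, none dim) against -0.42 to 0.21 in the others; control 4, the lowest in Cp, was the lowest in those markers. The part of these markers in the Cp values was not tested.

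None of the 10 genes passed the limma threshold (adjusted p of 0.05 over all probe sets), which 0.0237% of all 21115 probe sets did, 5 in number. At an unadjusted p under 0.05 there were 3 of 10, Orm1, Orm2 and Orm3, where 8.62% of all probe sets were. The same 3 were the genes whose groups did not overlap with GRBATKO lower, a state found in 2.42% of all probe sets; since the Orm genes were chosen with this contrast known, nothing is read from these counts. The fit with an intensity trend in its variance prior called Orm1 and Orm3, leaving out flat probe sets called Orm3, and the pseudocount of 16 called Orm1; the other 18 settings called none of the 10. The median difference of the set was -0.10 (log2), with 7 genes lower and 3 higher, beside a median of -0.0022 over all probe sets.

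**Figure D2:**
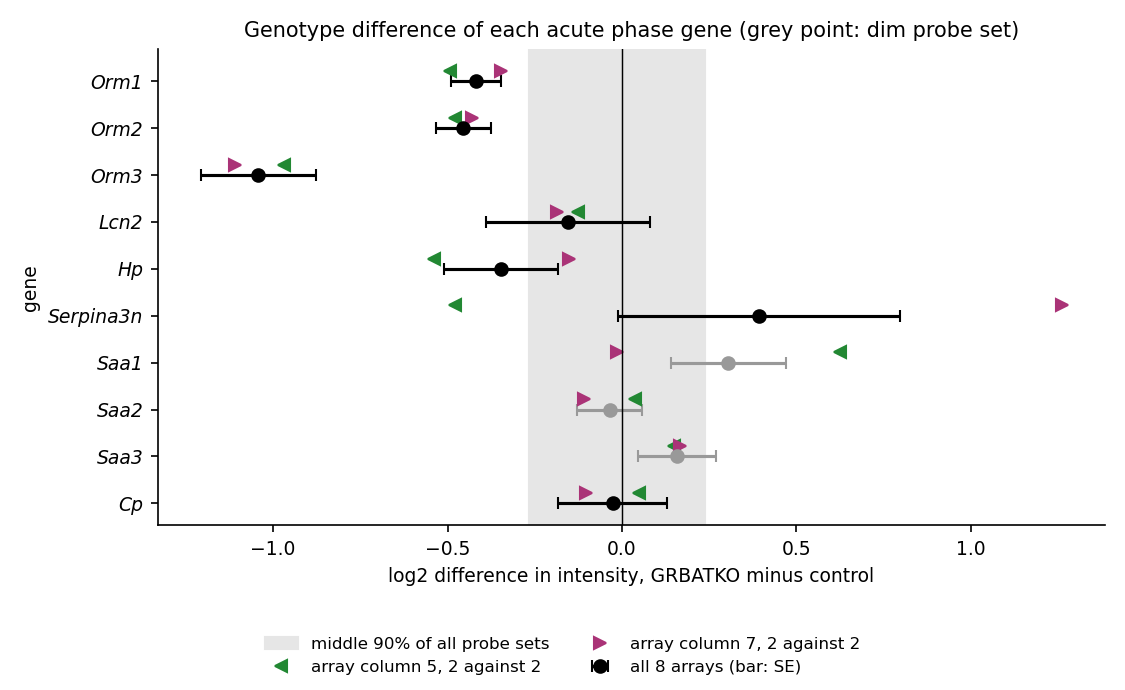
Log2 difference in intensity, GRBATKO minus control (x axis), for each acute phase gene (y axis): points with SE from all 8 arrays, grey where the probe set was dim, and triangles for the 2 array columns taken alone. The shaded band holds the middle 90% of all probe sets, from -0.27 to 0.24; the 3 orosomucoids lie below it in both columns, and Serpina3n points in opposite directions in columns 5 and 7.

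The spread between mice of the same genotype is given as a description, and it is not independent of how the Orm genes were chosen, since genes that stand out in a contrast tend to have a small spread within groups. The pooled within-group SD of Serpina3n, 0.71, exceeded that of 99.3% of the 2217 probe sets with a mean within 0.5 (log2) of its own. Hp (0.27) exceeded 97.7% of its 1732 such probe sets, Orm3 (0.27) 94.8%, Cp (0.26) 94.5% and Lcn2 (0.40) 94.4%. Orm1 (0.07) and Orm2 (0.09) were on the quiet side, above 32.1% of 448 and 8.65% of 2278 probe sets. So 5 of the 7 acute phase genes that were not dim lay above most genes of like intensity in this spread, and Orm1 and Orm2 lay below most.

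Genes with the most similar pattern over the 8 arrays were sought for the 3 genes that ranged by at least 1 log2 unit, Orm3 (1.63), Lcn2 (1.29) and Serpina3n (1.81). Likeness was the root mean square distance between log2 values centred on each gene's own mean, over 17874 other named genes. Nearest to Orm3 were Prodh, which starts proline breakdown (0.14), Hsd11b1, which regenerates active corticosterone (0.17), and Cdkn1a, the cell cycle inhibitor p21 (0.22). All 3 were lower in every GRBATKO mouse. That shared step follows from the search, since Orm3 was chosen with its step known and likeness was taken over the same arrays. Nothing is read from it. Prodh also had its highest value in control 2, at 7.21, and its lowest control value in control 1, at 6.52. Nearest to Serpina3n were Car3, a carbonic anhydrase of fat and muscle (0.22), Trf, the plasma iron carrier transferrin (0.24), and Slc25a10, the mitochondrial dicarboxylate carrier (0.26). Car3 was 11.14 in control 1 and 11.45 in GRBATKO 2, and 9.40 in control 2, so the same mice were at its extremes. It was also 11.13 in GRBATKO 3, where Serpina3n was 5.21. The search favours such shared extremes, both of Car3 with Serpina3n and of Prodh with Orm3, and nothing is read from them. Lcn2 was matched by Pcdhb5, Qrfp and Ttll13 (0.13 to 0.14), of which Pcdhb5 and Ttll13 were dim. No gene of the set was among the nearest 3 of another.

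**Figure D3:**
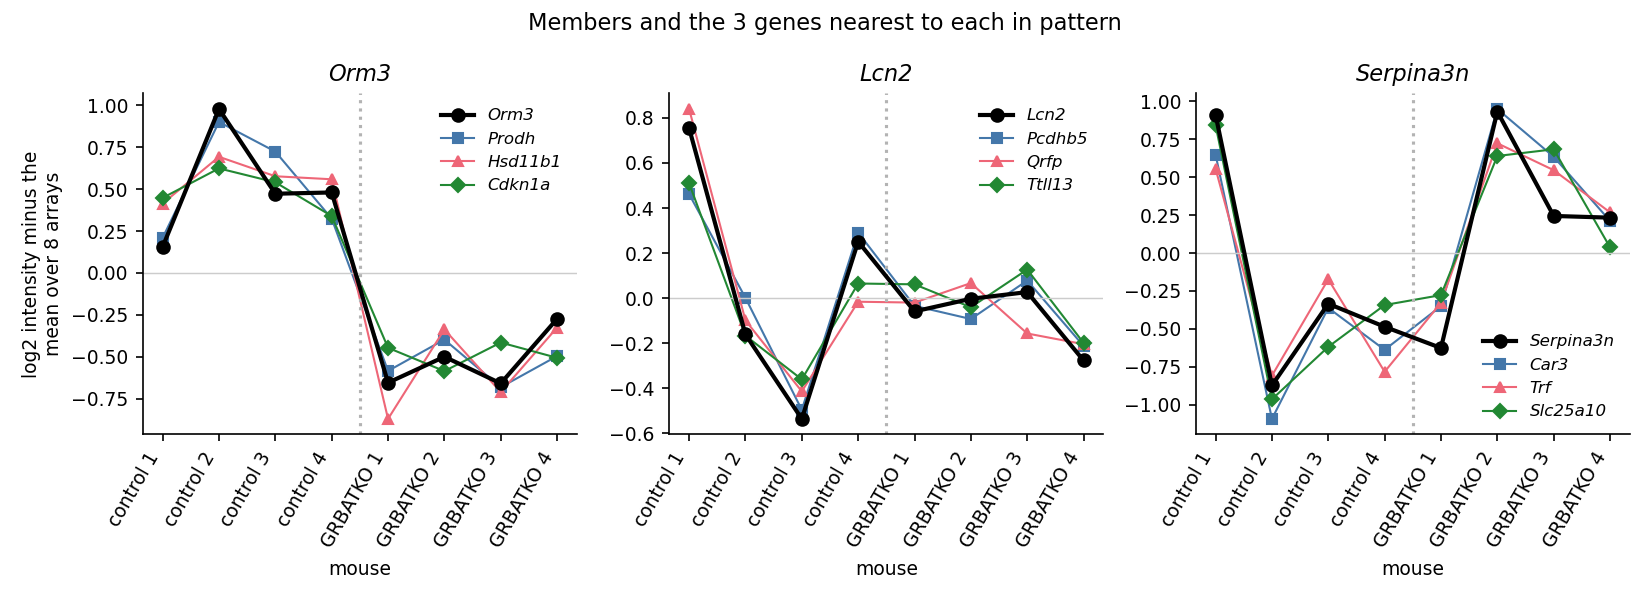
Log2 intensity minus the mean over 8 arrays (y axis) by mouse (x axis) for Orm3, Lcn2 and Serpina3n (black) and the 3 genes nearest to each; the dotted line parts control from GRBATKO mice. Orm3 and its neighbours step down at the genotype line, as genes sought for likeness to Orm3 must. Serpina3n and its neighbours are high in control 1 and GRBATKO 2, which the search favours. The neighbours are also high in GRBATKO 3, where Serpina3n lies lower.

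The measured genes next to each locus in the order of gene starts showed no call. Gene ends were not used, so a gene that starts farther away may end nearer. On either side of the Orm cluster, Mir455 differed by -0.23 (SE 0.16, limma adjusted p = 0.720) and Akna by 0.01 (SE 0.15, adjusted p = 0.984). Beside the Saa cluster, Saal1 differed by 0.19 (SE 0.12) and Hps5 by 0.20 (SE 0.07, limma adjusted p = 0.515). Around Lcn2, Hp, Serpina3n and Cp, the neighbours 1110008P14Rik, Ptges2, Txnl4b, Dhodh, Serpina3i, Gsc, 4632415L05Rik and Hps3 differed by -0.13 to 0.19, none past the threshold.

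Beyond the set, 104 genes of the same biology were measured, from 8 lists of acute phase proteins, cytokines, receptors, transcription factors, ligands, metal handling and paralogs. None passed limma's adjusted threshold, and 11 of the 104 had an unadjusted p under 0.05, where 8.62% of all probe sets did. None of those tested passed in any of the 21 alternative settings, which left out up to 59 of the 104 as dim or flat.

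Other positive acute phase proteins (27 measured, 14 dim) had a median difference of -0.04, with 11 higher and 16 lower. The members of smallest p that were not dim were Cd14, the co-receptor for bacterial lipopolysaccharide, which averaged 3.99 ± 0.32 in control and 4.42 ± 0.12 in GRBATKO mice (SD, n = 4 each; difference 0.43, SE 0.15, limma adjusted p = 0.509), and Steap4, a metalloreductase of adipocytes (0.25, SE 0.09, adjusted p = 0.515). The metallothioneins Mt1 and Mt2, which bind zinc and copper and are induced by glucocorticoids, differed by -0.26 (SE 0.11, limma adjusted p = 0.563) and -0.51 (SE 0.21, adjusted p = 0.563). Mt2 was 11.13 in control 1, 11.82 to 12.00 in the remaining controls and 10.81 to 11.45 in GRBATKO mice. Itih4, another gene of this list, differed by -0.62 (SE 0.29) with control 1 at 5.95 and the other 7 mice between 4.10 and 4.89.

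Negative acute phase proteins are those that plasma loses during inflammation. Of 9 measured, 5 were dim, 3 were higher and 6 lower, with a median of -0.12. Among the 4 that were not dim the median was 0.18. Rbp4, which carries retinol and is made in quantity by fat, ran from 9.57 to 10.17 in control and from 10.20 to 10.46 in GRBATKO mice, without overlap (difference 0.46, SE 0.13, limma adjusted p = 0.413). Trf differed by 0.60 (SE 0.32, limma adjusted p = 0.653), but the sign turned between the array columns, with -0.08 in column 5 and 1.29 in column 7.

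The cytokines that induce acute phase genes (10 measured, 6 dim) had a median difference of -0.01. Tnf ran from 3.34 to 4.31 in control and from 3.18 to 3.61 in GRBATKO mice (difference -0.44, SE 0.19, limma adjusted p = 0.564), Clcf1 differed by 0.02 (SE 0.12), and Il6 itself was dim, at 1.69 to 2.46 over all mice. Their receptors and adaptors (12 measured, none dim) had a median of 0.00 and a range from -0.16 to 0.21, with Il1rap, the shared subunit of interleukin-1 receptors, at 0.21 (SE 0.11, limma adjusted p = 0.638) and Tnfrsf1a at -0.16 (SE 0.11, adjusted p = 0.711). Il6ra and Il6st, which together form the interleukin-6 receptor, differed by -0.15 (SE 0.18) and 0.02 (SE 0.08).

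Transcription factors of the response and their regulators (15 measured, none dim) had a median of -0.02, with 6 higher and 9 lower. Socs3, the STAT3-induced brake on interleukin-6 signalling, differed by -0.36 (SE 0.17, limma adjusted p = 0.610) and Nfkbiz, a nuclear cofactor of NF-kB, by 0.21 (SE 0.12, adjusted p = 0.680). Stat3 differed by -0.02 (SE 0.07), Cebpb by 0.01 (SE 0.09), Cebpa by 0.04 (SE 0.08) and Cebpd by -0.05 (SE 0.15). These are RNA intensities only. The activity of these factors was not measured, and their part in the orosomucoid differences was not tested.

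Receptors, ligands and protease targets of the set (11 measured, 5 dim) had a median of 0.01 and a range from -0.15 to 0.07. Slc22a17, a cell-surface receptor for lipocalin 2, differed by 0.07 (SE 0.07, limma adjusted p = 0.798), Ager, a receptor for serum amyloid A among others, by -0.15 (SE 0.12, adjusted p = 0.749), and the haemoglobin-haptoglobin scavenger receptor Cd163 by 0.01 (SE 0.16). Iron and copper genes (12 measured, 1 dim) had a median of 0.01. Hephl1, a ferroxidase related to ceruloplasmin, differed by 0.47 (SE 0.14, limma adjusted p = 0.439; 0.20 in column 5 and 0.73 in column 7), and Hmox1, which breaks down haem, by -0.42 (SE 0.17, adjusted p = 0.563).

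Paralogs of the set (12 measured, 6 dim) had 6 higher and 6 lower and a median of 0.04. Ptgds, a lipocalin that makes prostaglandin D2, ran from 6.27 to 6.95 in control and from 5.44 to 6.09 in GRBATKO mice, without overlap (difference -0.70, SE 0.19, limma adjusted p = 0.393). Rbp4, also of the lipocalin family, had no overlap in the other direction, and Lcn2 overlapped.

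**Figure D4:**
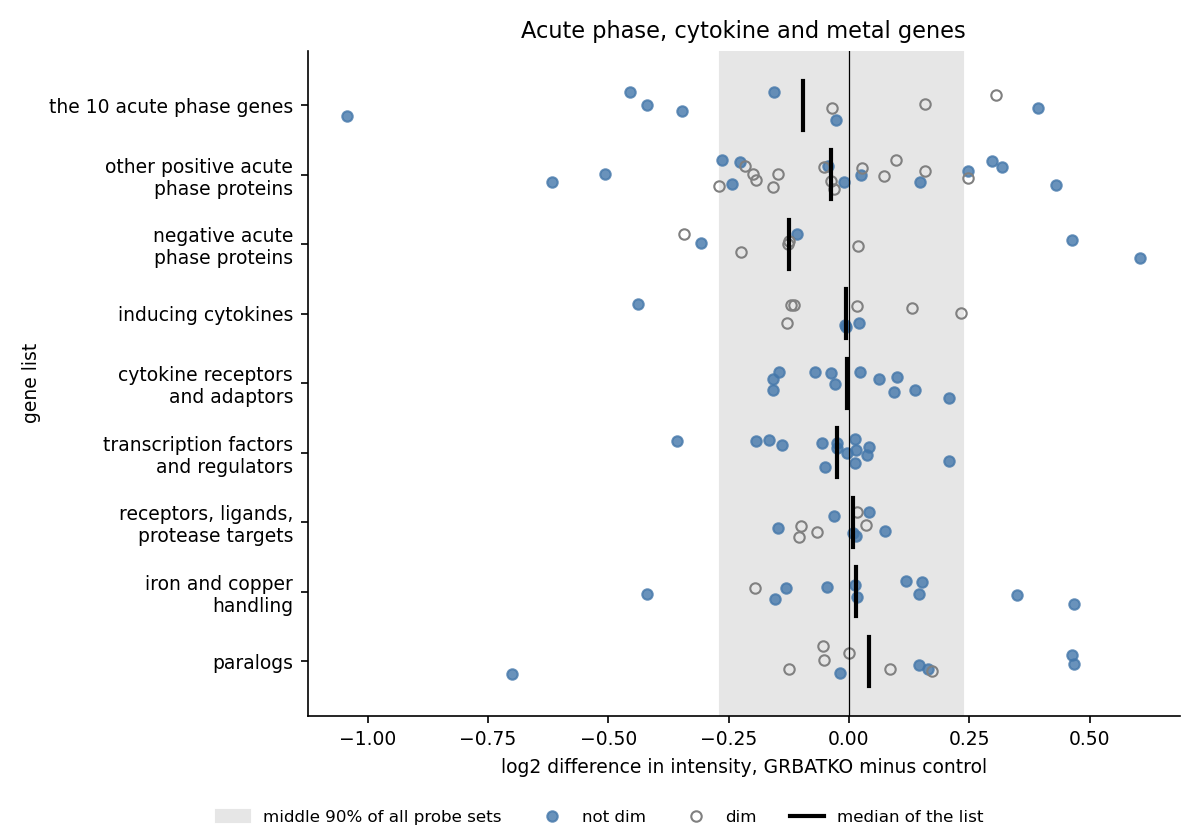
Log2 difference in intensity, GRBATKO minus control (x axis), of each measured gene of the acute phase set and of 8 lists of related genes (y axis); filled points were not dim, open points were dim, and black bars are list medians. The shaded band is the middle 90% of all probe sets; list medians lie between -0.12 and 0.04, and Orm3 is the lowest point.

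Markers of cells that also make these proteins were set beside the genotypes. Hepatocyte markers (15 measured, 10 dim) had 3 higher and 12 lower, a median difference of -0.04, and mean deviations from -0.17 to 0.30 in control and from -0.06 to 0.07 in GRBATKO mice, the highest being control 4. Among them Cyp2e1 differed by 0.87 (SE 0.36, limma adjusted p = 0.563), with 0.16 in column 5 and 1.57 in column 7, and Apoc3 by -0.14 (SE 0.10). Macrophage markers (8 higher, 5 lower) ran from -0.42 to 0.21 and from -0.27 to 0.36, with Fcgr1 at -0.32 (SE 0.20) and Csf1r at -0.11 (SE 0.14). Mesothelial markers (10 measured, 6 dim; 5 higher, 5 lower) ran from -0.20 to 0.13 and from -0.09 to 0.08, with Lrrn4 at 0.27 (SE 0.14) and Krt8 at -0.23 (SE 0.21). Endothelial markers (10 measured, none dim; 5 higher, 5 lower) ran from -0.06 to 0.03 and from -0.03 to 0.05, with Tie1 at -0.14 (SE 0.07) and Flt1 at 0.12 (SE 0.08).

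White adipocyte markers had 4 higher and 4 lower and a median difference of -0.04; Sncg and Lep differed by 0.26 (SE 0.11) and 0.98 (SE 0.41), and Mest and Trem2 by -0.45 (SE 0.22) and -0.29 (SE 0.12). Neutrophil markers had 7 higher and 6 lower and a median of 0.03, with Csf3r at 0.06 (SE 0.13) and Camp at -0.04 (SE 0.13). Lymphocyte markers (10 measured, 3 dim) had 8 higher and 2 lower and a median of 0.18; the B cell genes Cd79b and Cd79a differed by 0.44 (SE 0.39) and 0.23 (SE 0.33), the former by 0.01 in column 5 and 0.87 in column 7 and the latter by -0.37 and 0.84. Skeletal muscle markers had 1 higher and 13 lower and a median of -0.69, with Mb at -1.44 (SE 0.32) and Myh4 at -1.40 (SE 1.46; -3.52 in column 5 and 0.72 in column 7). Mb was lower in every GRBATKO mouse than in any control. It was highest in control 2, at 8.83, where the list had a mean deviation of -0.74, so it did not rank the mice as the list did. None of these marker genes passed the threshold, and in each list the groups overlapped in the mean deviation. Of the 31 genes named from the lists, 7 had opposite signs in the main comparison and in 1 of the columns: Trf, Clcf1, Ager, Csf3r, Camp, Cd79a and Myh4. Leaving out any 1 mouse, the Orm1 difference stayed between -0.46 and -0.39, that of Orm2 between -0.50 and -0.41 and that of Orm3 between -1.16 and -0.89. The groups of these 3 genes did not overlap, so leaving out a mouse could not turn their sign. The part of other cell types in the orosomucoid differences was not tested.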

How the data were processed

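RNA of brown adipose tissue from 4 control and 4 GRBATKO mice was hybridised to 8 arrays. The authors deposited 1 linear-scale intensity per probe set, made with RMA per the submitters' processing notes; the sources used here give no version, build or probe-set definition. Intensities ran from 2.07 to 9168, so log2 was taken. The platform annotation named 20405 of 21115 probe sets, and all of these gene numbers matched RefSeq GRCm38.p6, used for names, gene order and promoter sequences only. No column lacked a sample.

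Groups were compared with limma 3.58.1 (R 4.3.3; lmFit, eBayes) on all probe sets, with Benjamini-Hochberg adjustment at 0.05, 6 residual and 3.46 prior degrees of freedom. The number of arrays limits the precision, and p-values rest on the spread of these samples, part of which may be technical, since no label tells how tissue was taken from each mouse. Tested on simulated data (this comparison, 21115 probe sets, 200 of them changed), the fit recovered 62.8% of 1.5-fold and 89.6% of 2-fold changes. The simulated noise was normal and independent, and the changes were 1.5-, 2-, 3- and 4-fold in equal shares. With that many changes the adjusted threshold is easier to pass than in the real data, where 5 probe sets passed. These percentages therefore do not give the recovery in the real data, where Orm3, at 0.486 of control, was not called. The members, lists and tests were chosen with earlier results of these data known. Named were all members and Nr3c1; of each list its calls or, without any, the 2 genes of smallest p that were not dim; the 3 nearest patterns; and neighbouring genes. Mt1, Mt2, Itih4, Il6, Il6ra, Il6st, Stat3, Cebpa, Cebpb, Cebpd, Cd163, Alb, Ucp1, S100a8, Retn, Mest and Trem2 were named outside that rule, after their values were seen. The alternatives are given in the closing section.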

Additional observations from a re-analysis of the deposited data

Results flagged for a closer look

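In 8 of the 84 sets of 4 mice checked (each named gene in each group), the highest or lowest mouse stood apart by more than Dixon's 95% limit; chance flags about 1 in 20. Saa3 was 2.55 in GRBATKO 2, above 2.13 to 2.20 in the other GRBATKO mice, all of them dim values. Rbp4 was 10.20 in GRBATKO 4, below 10.41 to 10.46. Nfkbiz was 4.49 in control 1, with the other controls at 4.93 to 5.01. In control 4, Ager stood at 4.46 above 4.01 to 4.05, and Slc22a17 at 5.15 above 4.95 to 4.97. Apoc3 was 6.43 in control 3 against 6.14 to 6.17. The B cell gene Cd79b was 5.73 in GRBATKO 2 against 3.80 to 4.03, and the muscle myosin gene Myh4 was 6.99 in GRBATKO 4 against 2.30 to 2.67.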

How the results depend on the processing

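The 3 orosomucoid differences kept their sign in all 23 alternatives, as did that of Hp. For the orosomucoids nothing is read from this, since they were chosen with this contrast known. Their groups did not overlap, so no choice of mice could turn the sign. Values for Orm1 ran from -0.49 (array column 5) to -0.35 (column 7), and Orm2 was -0.32 with a pseudocount of 16. Serpina3n was -0.48 in column 5 and 1.26 in column 7, Saa1 0.625 and -0.015, and Lcn2 0.27 without control 1 and control 4. The cause of these shifts was not tested. The 5 probe sets past the threshold became 1 with the replicate block, 30 with an intensity trend (18 higher, 12 lower), 1 with the ordinary t statistic, 8 after repeated quantile normalization, 8 without dim probe sets (4 higher, 4 lower), 10 without flat ones, 12 with the pseudocount (7 higher, 5 lower), 3 without control 1 and control 4, 2 without control 3 and GRBATKO 4, and 3 to 5 without any 1 mouse, the lowest without GRBATKO 2. Of the acute phase set, 2 were called with the trend, 1 without flat probe sets and 1 with the pseudocount. Nr3c1 was called in 16 alternatives and missed with the replicate block (-0.864), the ordinary t statistic (-0.864), without GRBATKO 2, without control 1 and control 4 (-0.936) and without control 3 and GRBATKO 4 (-0.868); leaving out any 1 mouse gave -0.896 to -0.819, and adjusted p ranged from 0.000407 to 0.157 in limma. Mouse numbers do not pair the groups: same-numbered mice correlated in their deviations at -0.056 to 0.092, and only mouse 2 of each group correlated best with its own number. The replicate block changed no call within the acute phase set or the 104 related genes. Dim probe sets, among them all Saa genes, have no known distance from background.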
